A study of Mus musculus with 2 samples.

Results

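Translation initiation and elongation factors were examined in cells that the labels call ILCreg, for regulatory innate lymphoid cells. They had been isolated by flow sorting from small intestines of IL-10-GFP knockin mice (C57BL/6 strain, 8 weeks old). The factors were taken as all array features whose only gene symbol in the platform annotation begins with Eif and a digit from 1 to 6 or with Eef and a digit 1 or 2. This gave 56 features for 55 gene symbols, out of 28573 features with exactly 1 symbol and 61344 features in all. The series holds 1 group of 2 arrays, called array 1 and array 2 for replicates 1 and 2, and both carry the knockin that marks interleukin 10 producing cells with green fluorescent protein. Whether each array had mice or a sort of its own is not stated, and their spread may be purely technical. The stated sort purity was over 95%, with no gates named.

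Translation in eukaryotes begins when the small ribosomal subunit, loaded with initiator tRNA by eIF2, is brought to the capped end of an mRNA by the eIF4 factors and eIF3 and scans to the start codon with eIF1 and eIF1A. eIF5 and eIF5B complete the joining of the large subunit, and eEF1 and eEF2 then deliver each aminoacyl-tRNA and move the ribosome along. Kinases that phosphorylate eIF2, proteins that sequester eIF4E and a kinase that phosphorylates eEF2 set the rate of the whole process, and lymphocytes raise their protein synthesis through these points when they are activated. Symbols and membership did not always match the label. The symbol Eif2c5 follows an older form of Argonaute naming, from the small RNA pathway, but its gene is annotated as a long noncoding RNA. Eif1-ps3, Eif3s6-ps1, Eif4a-ps4 and Eif5al3-ps are named as pseudogenes. Eif4a3l1 is named as a copy like Eif4a3. The other 50 features stand for 49 factor genes, out of 69 factor genes listed by complex. Those not analysed here include Eif1, Eif2s1, Eif2ak2, Eif3a, Eif3g, Eif4g1, Eif4ebp3 and Eef1g.

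Promoter sequences of RefSeq (GRCm38.p6) are shown for genes chosen by hand from the elongation, eIF2, eIF2B and eIF3 groups. The marks were counted over all members and are not particular to these groups or genes. Among members not shown, Eif2b5, Eif3d, Eif2ak1, Eif4e2, Eif5a and Eif5a2 also carry one. The table held 55 annotated starts for 40 of the member genes. Each line gives 50 bases before and 30 bases from the annotated start, 5′ to 3′ on the gene's strand. Capitals mark an unbroken run of at least 8 C or T letters that includes the annotated first base, or the letters CCGGAAGT on either strand. Eef1a2, Eef2 and Eif2s3y carry neither mark and are shown for comparison with their relatives. Each of them holds a run of that length or longer after the annotated base, ttctctccctc in Eef1a2, tctcttcc in Eef2 and cttccttctttc in Eif2s3y. In Eif2s3y it begins at the very next base, so the lack of capitals rests on where the start is annotated.
Eef1a1, chr9:78481695-78481774, minus strand: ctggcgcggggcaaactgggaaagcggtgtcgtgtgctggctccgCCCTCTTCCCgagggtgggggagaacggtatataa
Eef1a2, chr2:181156986-181157065, minus strand: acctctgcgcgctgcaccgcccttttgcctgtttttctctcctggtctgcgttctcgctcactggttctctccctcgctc
Eef1b2, chr1:63176781-63176860, plus strand: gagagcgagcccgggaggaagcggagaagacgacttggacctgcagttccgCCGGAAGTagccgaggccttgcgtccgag
Eef2, chr10:81176581-81176660, plus strand: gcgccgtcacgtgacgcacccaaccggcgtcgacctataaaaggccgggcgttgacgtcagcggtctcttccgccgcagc
Eif2s3x, chrX:94212622-94212701, minus strand: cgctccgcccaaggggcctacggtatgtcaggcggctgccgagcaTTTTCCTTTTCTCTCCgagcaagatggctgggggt
Eif2s3y, chrY:1010545-1010624, plus strand: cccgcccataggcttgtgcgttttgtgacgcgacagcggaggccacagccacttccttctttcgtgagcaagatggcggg
Eif2b2, chr12:85219431-85219510, plus strand: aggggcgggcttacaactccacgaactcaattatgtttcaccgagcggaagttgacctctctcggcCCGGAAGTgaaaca
Eif2b4, chr5:31193110-31193189, minus strand: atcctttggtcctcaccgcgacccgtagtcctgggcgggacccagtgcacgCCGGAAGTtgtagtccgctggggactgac
Eif3f, chr7:108934365-108934444, plus strand: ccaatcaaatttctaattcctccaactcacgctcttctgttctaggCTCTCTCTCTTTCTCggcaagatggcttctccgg
Eif3l, chr15:79075173-79075252, plus strand: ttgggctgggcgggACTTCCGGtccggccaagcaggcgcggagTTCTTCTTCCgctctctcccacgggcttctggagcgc

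A run of C and T that begins with the first base of the mRNA marks terminal oligopyrimidine mRNAs. This class is known for ribosomal proteins and elongation factors, and its translation follows mTOR activity. The run counted here only had to include the annotated base and could begin before it. In Eef1a1 part of the run, and in Eif3l most of it, lies before that base. The count is therefore not one of terminal oligopyrimidine mRNAs. A run as counted here lay at 6 of 55 member starts (10.9%). It lay at 602 of 16465 starts (3.66%) of the other protein-coding genes measured here and 3.86% of all starts in the table. The 6 genes were Eef1a1, Eif2b5, Eif2s3x, Eif3f, Eif3l and Eif2c5, and all but Eif2c5 had signal above the threshold described below. Eif2c5 is annotated as a long noncoding RNA, so the member count is not one of protein-coding factors alone. In Eef1a1 the letters tatataa follow the run, which is not shown to be the first bases of its mRNA. The count takes all annotated starts as given, and their placement was not tested. The letters CCGGAAGT, the core bound by Ets family factors, were searched on both strands of the 300 bases around each start and were found at 11 of 55 member starts (20%), against 923 of 16465 (5.61%) in the other protein-coding genes and 3.89% in the whole table. These 11 starts belonged to 9 genes, since the overlapping starts of Eif4e2 share a match, and 7 of the 9 genes were above the threshold. The 2 that were not, Eif2b4 and Eif5a2, also carried the letters. The letters TATAAA on either strand occurred at 4 member starts (7.27%), those of Eef2, Eif2s3y, Eif3b and Eif3f, against 10.3% of the other protein-coding starts. The ratio of observed to chance CG pairs had a median of 0.83 over member starts and 0.63 over the other protein-coding starts. These are matches of letters in windows around annotated starts, chosen after the values were seen and given without a test.

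The deposited values are 1 signal per feature and array, taken as log2 from their range, and all levels and differences below are on that scale. The lowest level that can be told from signal without transcript was set on each array at the 95th percentile of 1695 features of olfactory, vomeronasal and taste receptor genes, which was 6.74 on array 1 and 6.19 on array 2. A feature above both was called above the threshold, which holds for 2.48% of the receptor features themselves. A feature below it is not shown to be absent. The threshold of array 2 is the lower one, and each translation gene below that passed on only 1 array passed on array 2. Such a call does not mean a higher signal on array 2. Probes differ in affinity, so a higher signal of one gene does not mean more transcript than of another. Among other cell types' markers, all 6 epithelial, all 5 stromal and all 5 macrophage markers measured passed, as did 4 of 5 T cell markers, both B and plasma cell markers, 2 of 3 endothelial and 1 of 3 mast cell markers, beside all 9 genes chosen for ILCregs, Il10 among them. Every cell type uses translation factors, and their signal cannot be assigned to one cell type on these arrays.

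Translation factors were mostly above the threshold. On both arrays 47 of 56 features (83.9%) passed, against 31.7% of all features with 1 symbol and 39% of protein-coding features outside the receptor genes. Of the rest, 2 passed on 1 array and 7 on neither. Initiation factors passed for 37 of 42 features and elongation factors with their modifying enzymes for 5 of 8. The median signal of the members was 8.89, with the middle of the distribution between 7.49 and 11.13, against a median of 5.43 for all features with 1 symbol and 6.07 for protein-coding features outside the receptor genes. For orientation, 36 of 40 proteasome subunit features, 40 of 45 cytosolic ribosomal protein features and 50 of 71 mitochondrial ribosomal protein features passed. With 1 group of 2 arrays none of these shares was tested against another.

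**Figure D1:**
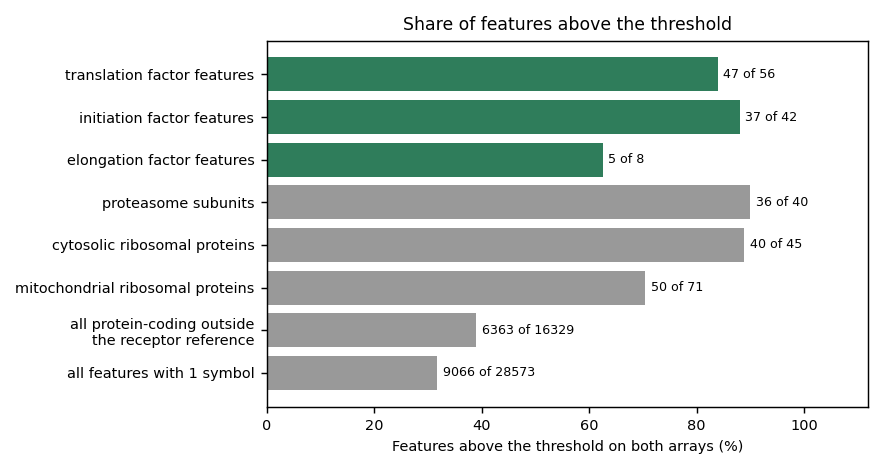
Bars give the percentage of features above the threshold on both arrays for translation factors, for the other multi-subunit machines and for all features, with the counts beside each bar. Translation factor features stood at 47 of 56 and all features with 1 symbol at 9066 of 28573.

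**Figure D2:**
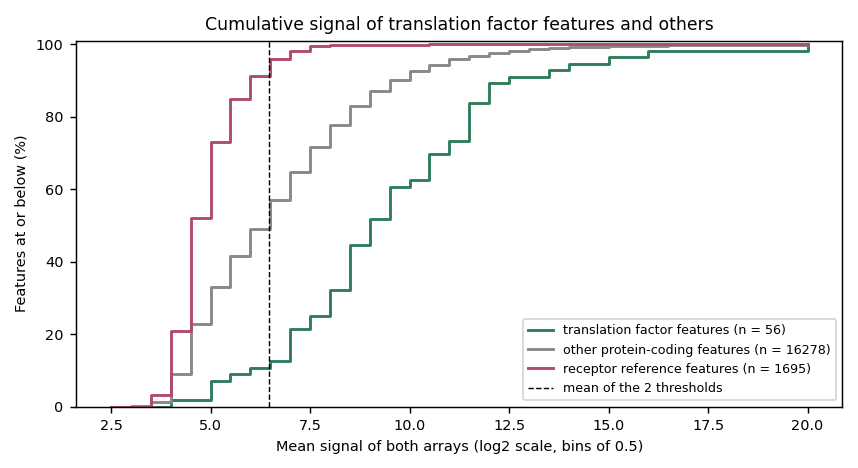
Cumulative share of features (percent) by mean signal of both arrays (log2 scale) for translation factors, other protein-coding features and the receptor features that set the threshold. The dashed line is the mean of both thresholds, and the curve of the translation factors lies to the right of the others over most of the range.

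The 56 values are shown by complex in the plot of signal on both arrays. Over all members the spread between the arrays was 0.26 (pooled SD, n = 2 arrays), against 0.31 over all features with 1 symbol and 0.26 over protein-coding features outside the receptor genes.

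**Figure D3:**
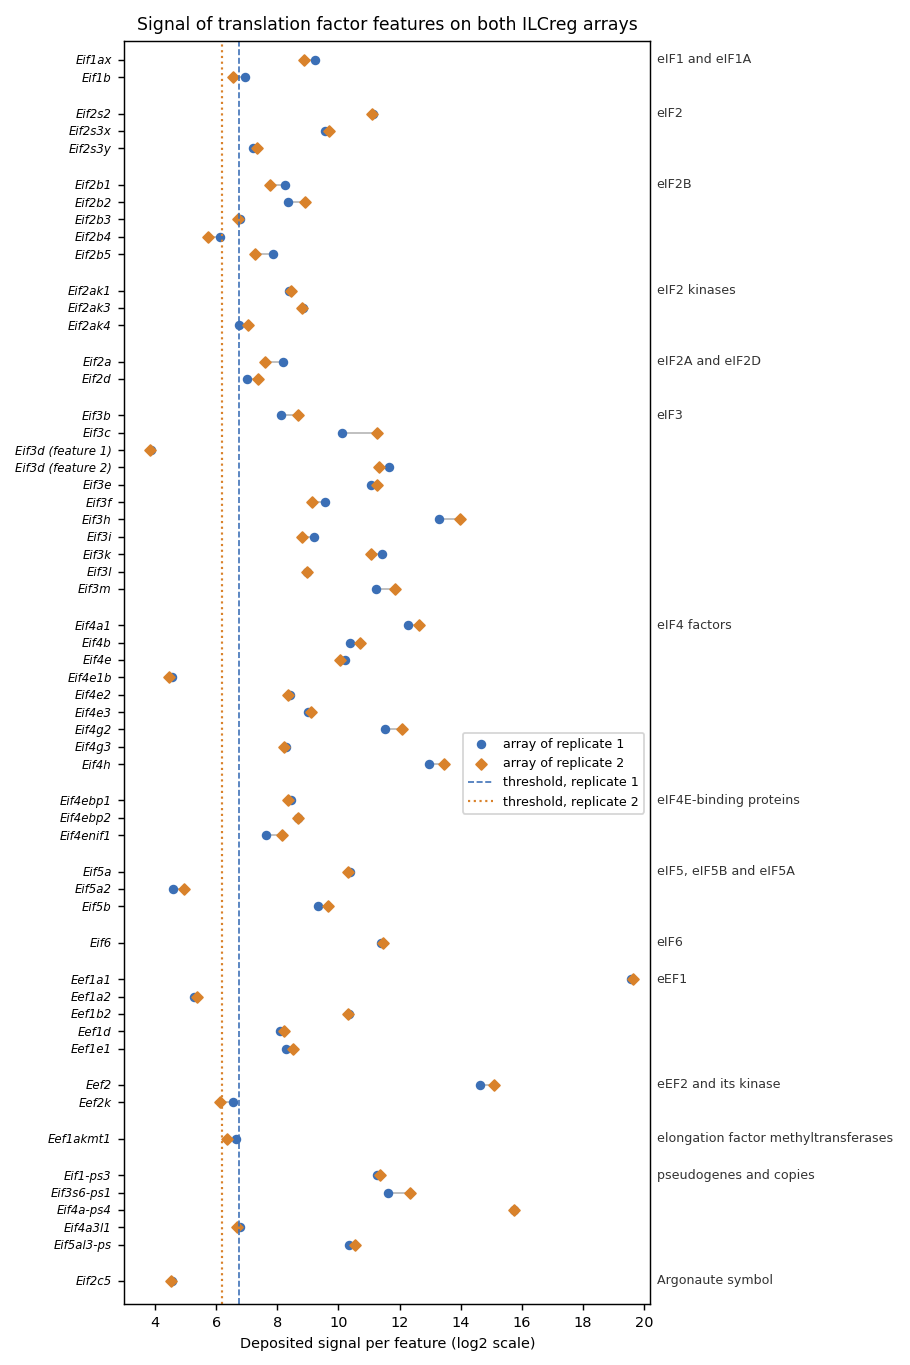
Deposited signal (log2 scale) of each translation factor feature on array 1 (circles) and array 2 (diamonds), grouped by complex, with the threshold of each array as a vertical line. Eef1a1 lies near 19.6 on both arrays, and Eif3d feature 1, Eif4e1b, Eif5a2, Eef1a2, Eif2b4, Eef2k and Eif2c5 lie below both lines.

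Among the factors that hold the scanning ribosome, Eif1ax, the X-linked gene of eIF1A, had 9.24 on array 1 and 8.86 on array 2. Eif1b, a close relative of Eif1, had 6.95 and 6.54 on the same arrays. Both genes passed, but Eif1b lay only 0.21 above the threshold on array 1 and 0.35 above it on array 2. It did not pass at the 99th percentile of the receptor features or when keratin-associated protein and Rhox features set the threshold.

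The measured eIF2 subunits all passed. Eif2s2, which encodes the beta subunit, had 11.14 on array 1 and 11.10 on array 2. The gamma subunit is encoded by an X-linked and a Y-linked gene, whose starts are shown above. Eif2s3x had 9.56 on array 1 and 9.68 on array 2, and Eif2s3y had 7.20 and 7.34. These genes are near-identical copies, so signal of one may be read by probes of the other, which was not tested. Eif2s3y no longer passed when the 99th percentile of the receptor features was used. Eif2a and Eif2d, which can deliver initiator tRNA without eIF2, also passed, Eif2a with 8.17 on array 1 and 7.60 on array 2, and Eif2d with 7.01 and 7.35. Eif2d did not pass at the 99th percentile or with keratin-associated protein and Rhox features as the standard.

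The exchange factor eIF2B, which recharges eIF2 with GTP and is blocked when eIF2 is phosphorylated, had 4 of 5 subunits above the threshold. Eif2b2, the beta subunit, had 8.34 on array 1 and 8.90 on array 2. Eif2b1, the alpha subunit, had 8.24 and 7.75, and Eif2b5, the catalytic epsilon subunit, had 7.87 and 7.25. The gamma subunit gene Eif2b3 passed narrowly with 6.78 and 6.73, which is 0.04 above the threshold on array 1. Eif2b4, the delta subunit, had 6.11 and 5.72 and passed on neither array. At the 99th percentile of the receptor features only 2 of the 5, Eif2b1 and Eif2b2, remained above it.

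Of the kinases that phosphorylate eIF2, those for haem shortage and for endoplasmic reticulum stress passed. Eif2ak1, the haem-regulated kinase, had 8.39 on array 1 and 8.45 on array 2. Eif2ak3, the kinase PERK of the unfolded protein response, had 8.86 and 8.80. The values of each differed by less than 0.1 between the arrays as deposited. Eif2ak4, the kinase GCN2 that senses amino acid shortage, had 6.74 on array 1 and 7.03 on array 2. It missed the threshold of array 1 by 0.0062 and exceeded that of array 2 by 0.84, so its call rests on that single value. Of 6 listed partners of this pathway 4 were measured, the stress transcription factor genes Atf4 and Ddit3 and the phosphatase subunit genes Ppp1r15a and Ppp1r15b that reverse eIF2 phosphorylation, named here after their values were seen. All 4 passed, with means from 9.71 to 12.52.

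The scaffold eIF3, which links the small subunit to the mRNA, was measured for 10 of its genes through 11 features, and each gene had a feature above the threshold. Eif3h had 13.30 on array 1 and 13.98 on array 2, and Eif3m had 11.24 and 11.86. Eif3c, a core subunit, had 10.12 and 11.26, a spread wider than for any other member. The subunit genes Eif3e and Eif3k had 11.05 and 11.25, and 11.43 and 11.07, on the same arrays. Eif3f and Eif3l, whose starts carry the run of C and T shown above, had 9.54 and 9.14, and 8.96 and 8.97. Eif3b, which organises the module beside the entry channel, had 8.11 and 8.68, and its partner Eif3i had 9.20 and 8.82. Eif3d, the subunit that in human cells can itself bind the cap, was represented by features that disagreed. One had 11.67 on array 1 and 11.31 on array 2, and the other had 3.86 and 3.83, the lowest mean of all members. What distinguishes the probes of these features is not given in the sources used here.

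Genes of the cap-binding complex and its helicase passed with 1 exception. Eif4a1, the RNA helicase, had 12.28 on array 1 and 12.62 on array 2, and its cofactor genes Eif4h and Eif4b had 12.94 and 13.44, and 10.38 and 10.71. Eif4e, the cap-binding protein, had 10.20 and 10.06. Among its relatives, Eif4e2, a cap-binding repressor, had 8.43 and 8.36, and Eif4e3 had 8.99 and 9.10. Eif4e1b, a relative known from oocytes, had 4.55 and 4.47 and passed on neither array. Of the scaffold genes, Eif4g2, whose protein works without eIF4E, had 11.54 and 12.08, and Eif4g3 had 8.28 and 8.22. The relatives of eIF4E with wide expression lay above the threshold and the germline one below it.

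The 3 measured proteins that sequester eIF4E passed. Eif4ebp1 and Eif4ebp2, repressors released from eIF4E when mTOR phosphorylates them, had 8.45 and 8.36, and 8.69 and 8.69, on arrays 1 and 2. Eif4enif1, which carries eIF4E into the nucleus, had 7.64 on array 1 and 8.14 on array 2 and did not pass at the 99th percentile. Transcript levels say nothing of the phosphorylation of these proteins, which was not measured.

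Among the factors of subunit joining, Eif5b, the GTPase of the last step, had 9.34 on array 1 and 9.65 on array 2. Eif5a, which helps the ribosome past difficult peptide bonds and carries the modified lysine hypusine, had 10.37 and 10.32. Its relative Eif5a2, of narrower expression, had 4.60 and 4.95 and passed on neither array. Eif6, which keeps the subunits apart and takes part in making the large one, had 11.38 and 11.47. Neither enzyme that makes hypusine passed on both arrays. Dhps had 5.84 on array 1 and 6.25 on array 2 and passed only on array 2, and Dohh had 5.70 and 5.69 and passed on neither.

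In the elongation machinery, Eef1a2, Eef2k and Eef1akmt1 did not pass on both arrays and the other 5 of 8 features did. Eef1a1, which delivers aminoacyl-tRNA, had 19.56 on array 1 and 19.62 on array 2. This is near the highest values of the arrays, 19.80 and 19.86, and the difference of Eef1a1 equals the difference of those maxima, 0.06, within 0.0001. Its spread is therefore read as set by the ceiling, and its level as a lower bound. Eef1a2, the form of muscle and neurons, had 5.27 and 5.37 and passed on neither array. The starts of both genes are shown above. The annotated start of Eef1a1 lies in a run of C and T, and that of Eef1a2 does not. In the Eef1a1 window the letters tatataa follow this run, at the end of the window. Eef1a2 has C and T stretches elsewhere in its window, so the contrast rests on the annotated bases. The exchange factor subunits Eef1b2 and Eef1d had 10.35 and 10.31, and 8.10 and 8.21, on arrays 1 and 2. Eef1e1, which belongs to the multi-synthetase complex, had 8.28 and 8.52. Eef2, the translocase, had 14.61 on array 1 and 15.09 on array 2. Its inhibitory kinase gene Eef2k had 6.54 and 6.14, which is 0.21 below the threshold on array 1 and 0.05 below it on array 2. The methyltransferase gene Eef1akmt1, whose enzyme modifies eEF1A, had 6.65 and 6.36. It passed only on array 2, where its value was lower but the threshold was lower too.

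Features of pseudogenes also gave signal. All 4 features whose symbols end in a pseudogene suffix passed, against 31.7% of 801 such features on the arrays. Eif4a-ps4 had 15.73 on array 1 and 15.72 on array 2, and Eif3s6-ps1, named after the older symbol of Eif3e, had 11.63 and 12.34. Eif1-ps3 had 11.26 and 11.34, and Eif5al3-ps had 10.35 and 10.53. Pseudogenes can be close copies of expressed genes, and the sequences of these were not compared here. Their signals may include those of the expressed factors, Eif1 among them, which was not tested, and are uncertain. Eif4a3l1 had 6.78 and 6.68 and lay 0.04 above the threshold of array 1. Eif2c5, by contrast, had 4.55 and 4.51 and passed on neither array.

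Between the arrays, Eif3c, Eif3s6-ps1 and Eif3h had the largest differences of the members. Differences were taken as array 2 minus array 1 and centred on the median difference of all features with 1 symbol, -0.05. The median centred difference of the 56 features was 0.08, with 35 higher on array 2 and 21 on array 1. Protein-coding features outside the receptor genes had a median of 0.04. In size, without regard to direction, the members' median was 0.27, against 0.21 for all features with 1 symbol, 0.20 for protein-coding features outside the receptor genes and 0.28 for all features above the threshold. Centring on protein-coding features above the threshold, whose median lay 0.13 higher, turned the members' median to -0.05, with 26 higher on array 2 and 30 on array 1. The members as a group therefore have no settled direction between the arrays. Over 1 in size was only Eif3c, higher on array 2 by 1.19, which is 2.29-fold if the log base is 2. By background, 1.47% of all features with 1 symbol were over 1 toward array 2 and 2% toward array 1, so 1 of 56 toward array 2 and 0 of 56 toward array 1 are near these shares. For protein-coding features outside the receptor genes the shares were 1.25% and 0.71%. Past 0.5 were 10 members toward array 2 and 2 toward array 1, against 9.03% and 9.28% of all features with 1 symbol and 10.3% and 5.18% of protein-coding features outside the receptor genes. With the other centring these counts were 4 and 3, so the imbalance depends on the centring. The shares over all features with that centring are not given here.

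**Figure D4:**
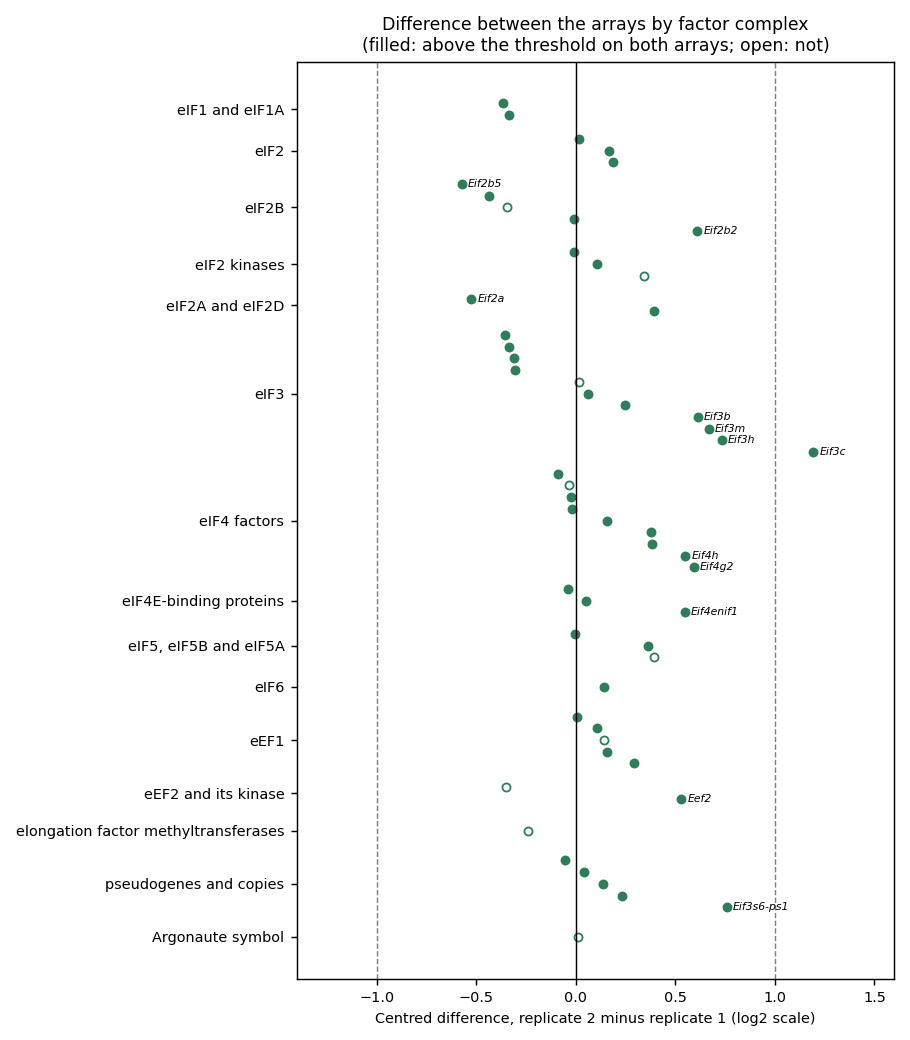
Centred difference between the arrays (array 2 minus array 1, log2 scale) of each member feature by complex. Filled points passed the threshold on both arrays, dashed lines mark a difference of 1 in either direction, and Eif3c at 1.19 is the 1 point past them.

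Within eIF3 the subunits went both ways. Eif3c (1.19), Eif3h (0.73), Eif3m (0.67) and Eif3b (0.61) were higher on array 2, while Eif3f, Eif3i, Eif3k and the higher feature of Eif3d lay between -0.36 and -0.30. The eIF2B subunits were likewise divided, with Eif2b2 at 0.61 and Eif2b5 and Eif2b1 at -0.57 and -0.44. The remaining members past 0.5 toward array 2 were Eif4g2 (0.59), Eif4h (0.55), Eif4enif1 (0.55), Eef2 (0.53) and the pseudogene Eif3s6-ps1 (0.76), and Eif2a stood at -0.52. Of the eEF1 features, Eef1b2, Eef1d and Eef1e1 stood at 0.01, 0.16 and 0.29. The difference of Eef1a1 is read as set by the ceiling and Eef1a2 lay below both thresholds, so neither difference is interpreted. Each of these differences compares single arrays, with no replicate to check it. On the same arrays the 5 stromal markers had a median centred difference of 1.74. Over the 3 whose difference is not read as set by the ceiling it was 1.89. Both B and plasma cell markers had a median of 0.69, the 5 macrophage markers 0.55 and the 9 genes chosen for ILCregs 0.51. The 5 T cell markers had 0.27 and the 3 endothelial markers 0.24. The 3 mast cell markers had a median of -0.14, and the 6 epithelial markers one of -0.27, with a range from -1.09 to 0.46. The part of such cells in the factor differences was not tested. In such bulk samples, fewer cells of a type and less RNA per cell cannot be told apart.

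Of 50 other genes of translation, 39 were measured and 26 of these (66.7%) passed, against 31.7% of all features with 1 symbol and 39% of protein-coding features outside the receptor genes. At the 99th percentile of the receptor features 16 did, and the share of all features at that percentile is not given here. The mRNA-bound partners of initiation passed for 7 of 10, the mTOR and MNK axis for 5 of 6, and release and recycling for 3 of 4. Enzymes that modify the factors passed for 4 of 8 and the factors of mitochondrial translation for 3 of 7. Those below on both arrays were Dohh, Dph2, Dph7, Mtif3, Tsfm, Mcts2, Paip2b and Gspt2, with means between 4.94 and 6.19. Those that passed only on array 2 were Dhps, Mknk1, which encodes an eIF4E kinase, the mitochondrial factor genes Guf1 and Mtif2, and Mcts1, which encodes a partner of ribosome recycling. Of these, Mtif2 had a lower value on array 2 than on array 1. Between the arrays, Pabpc1, the poly(A)-binding protein that joins eIF4G on the mRNA, had 13.50 on array 1 and 14.59 on array 2, a centred difference of 1.14. Hbs1l, a rescue factor for stalled ribosomes, had 8.75 and 9.76, a centred difference of 1.06. These 2 of 39 features compare with 1.47% of all features with 1 symbol, and with the other centring Pabpc1 stood at 1.01 and Hbs1l at 0.93.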

How the data were processed

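Total RNA of sorted ILCregs was amplified with a whole-transcript kit and hybridised to 2 Affymetrix arrays, per the labels' protocols. The authors deposited 1 value per transcript cluster and array, taken as log2 signal from the range of the values. Neither the log base nor the summarization, the background correction, the scaling or the genome build is stated. The submitters' processing notes name MAS5, without version or role. Of 61344 features, 28573 had 1 gene symbol, 2014 several and 30757 none; repeats of a symbol within a feature counted once. All 53 member features with an Entrez identifier matched the GRCm38.p6 gene table, and no symbol changed. The number of arrays limits the precision. With 1 group of 2 arrays there was no test and no p-value.

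The members and lists were chosen with earlier results of these data known. Every member is named. Of the list of other translation genes, those not above the threshold and those with a centred difference over 1 are named. Scripts (Python 3.11.15, pandas 2.3.3, numpy 2.4.6) were tested on simulated data. Alternatives were the 90th and 99th percentiles, keratin-associated protein and Rhox features for the threshold, single arrays, quantile normalization, other centring, and 1 feature per gene.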

Additional observations from a re-analysis of the deposited data

Results flagged for a closer look

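Of 5 features that carry several symbols, a factor symbol among them, 4 lay above the threshold on both arrays. They drew attention because their signal is in data that the results above leave out. The feature of Eif5, the GTPase-activating factor of start codon recognition, is shared with Snora28 and had a mean signal of 12.59 ± 0.40 (SD, n = 2). The feature shared by Eif3j1 and Eif3j2 had 10.44 ± 0.14. The feature of Eif4a3, a helicase of the exon junction complex, shared with Gm5576, had 9.34 ± 0.14, and that of Eif4a2, shared with Snora81 and Snord2, had 8.94 ± 0.19. The feature of Ago4, with the older symbol Eif2c4, had 5.96 ± 0.21 and did not pass.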

How the results depend on the processing

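The count of 47 members above the threshold was 50 with the 90th percentile of the receptor features, 40 with the 99th and 43 with keratin-associated protein and Rhox features. Without replicate 1 it was 49, with Eif2ak4 and Eef1akmt1 added. Without replicate 2 it was 47, with no member gained or lost. The members' calls were thus decided by array 1, whose threshold is higher, and array 2 excluded none. The 90th percentile added Eif2ak4, Eef2k and Eef1akmt1, so that eEF2 and its kinase had 2 passing genes and the methyltransferase group 1. The 99th percentile removed Eif1b, Eif2s3y, Eif2b3, Eif2b5, Eif2d, Eif4enif1 and Eif4a3l1, which left 2 eIF2B genes, 1 in the group of eIF1 and eIF1A and 1 in that of eIF2A and eIF2D, and other translation genes fell to 16. With the keratin-associated protein and Rhox features 1 gene remained in each of the groups of eIF1 and eIF1A and of eIF2A and eIF2D. These changes follow from stricter or looser thresholds by construction. The shares of all features that pass at these other thresholds are not given here, so the counts cannot be read against a background. In the methyltransferase group the count was 0 to 1 without either replicate. The members' median centred difference of 0.08 was -0.05 when centred on protein-coding features above the threshold and between 0.02 and 0.11 under the other settings. Eif3c was the 1 member past a difference of 1 under quantile normalization, other centring and the other settings run. Restriction to the factor genes was chosen after the data were seen and gave 42 of 50 features. No paired analysis was possible because there is 1 group. Signal near the receptor features limits what can be said of Eif2ak4, Eef2k and Eif2b3.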
